A study of Mus musculus with 12 samples.

Results

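The ubiquitin-specific proteases form the largest family of deubiquitinating enzymes, and Usp2 is the member whose transcript is tied to the circadian clock. Members were all genes whose symbol in the platform annotation began with Usp and a number, measured by a probe set that named no other gene. Where a gene had several such probe sets, the brightest over all arrays stood for it. The rule found 56 members among 22180 named genes. Of these, 55 carry the name as proteases, while Usp6nl, which encodes a GTPase-activating protein for Rab proteins, was kept because the symbol rule includes it. The family was taken up because Usp2 had stood out in the comparison of CM-695 with vehicle, so the Usp2 values in that comparison, its place among the genes past the threshold included, are a description and support nothing. The other 55 members were chosen by name and not by their values.

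The study used female CD-1 mice, an outbred stock. In the CM-695 group, 6 mice received 80 mg/kg of CM-695 into the peritoneum, first at 2 h and then at 1 h before they were killed. CM-695 inhibits HDAC6, a cytoplasmic deacetylase, and phosphodiesterase 9, which degrades cyclic GMP. The vehicle group of 6 mice received saline, a single injection by the series design, so drug and number of injections cannot be told apart. Each mouse gave 1 Affymetrix array of aortic tissue, and expression is given as log2 values after RMA, a method that corrects background, normalizes arrays and summarizes probes. The sources used here give neither the age of the mice nor the hour of collection. Whether both groups were collected at the same hour is not known, so drug and hour of collection cannot be told apart.

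Array medians ran from 4.69 to 4.74, and correlations between arrays from 0.957 to 0.977. Precision is limited by having 6 mice in each group. Vessel wall markers were present: 8 of 8 smooth muscle and 8 of 8 endothelial markers lay above the median of all probe sets, 4.72. So did 10 of 10 cardiac muscle and 7 of 7 adipocyte markers, so transcripts of cells other than those of the vessel wall were present. The cardiac marker mean was 7.34 to 9.33 in vehicle mice and 6.08 to 8.44 in CM-695 mice, with 3 of 6 treated mice below the vehicle range. In difference 10 of 10 cardiac markers were below 0, 8 at an unadjusted p under 0.05 and 0 past the threshold of limma. Fibroblast markers were below 0 in 6 of 6 (median -0.46, 2 at an unadjusted p under 0.05) and liver markers above 0 in 6 of 6 (median 0.54, 1 at an unadjusted p under 0.05), with 0 past the threshold in each and 3 of 6 treated mice outside the vehicle range of each mean. In bulk tissue, fewer cells of a type and less RNA per cell cannot be told apart. RMA values carry no detection call and no true 0.

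Ubiquitin is attached to proteins by ligases and removed by deubiquitinases. The ubiquitin-specific proteases are cysteine proteases that cleave ubiquitin from substrates or trim ubiquitin chains, and each acts on its own range of targets, from histones and cell cycle proteins to endosomal cargo. Usp2 is made in several isoforms from alternative start sites, and its messenger RNA cycles over the day in many mouse tissues, where it is counted among the direct outputs of the BMAL1 and CLOCK activator pair. USP2 protein has in turn been reported to act on clock proteins and on cyclin D1, MDM2 and fatty acid synthase.

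The highest Usp2 level among CM-695 mice lay below the lowest among vehicle mice. In vehicle mice Usp2 measured 8.05 at the lowest, 8.35 at the median and 8.76 at the highest. In CM-695 mice it measured 6.23 at the lowest, 6.60 at the median and 7.44 at the highest. The groups were separated by 0.60 log2 units between the lowest vehicle mouse, mouse 3, and the highest treated mouse, mouse 4. The means were 8.42 ± 0.28 (SD, n = 6) after vehicle and 6.73 ± 0.44 (SD, n = 6) after CM-695. The difference was -1.69 log2 (SE 0.20, 95% confidence interval -2.12 to -1.27), which is a 3.23-fold lower level. Among all 22180 genes it was the 15th largest difference toward lower values. These are the values that led to the choice of Usp2, and nothing is inferred from their size. With the cardiac marker mean in the fit the difference was -1.64, and with the smooth muscle marker mean -1.73.

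**Figure D1:**
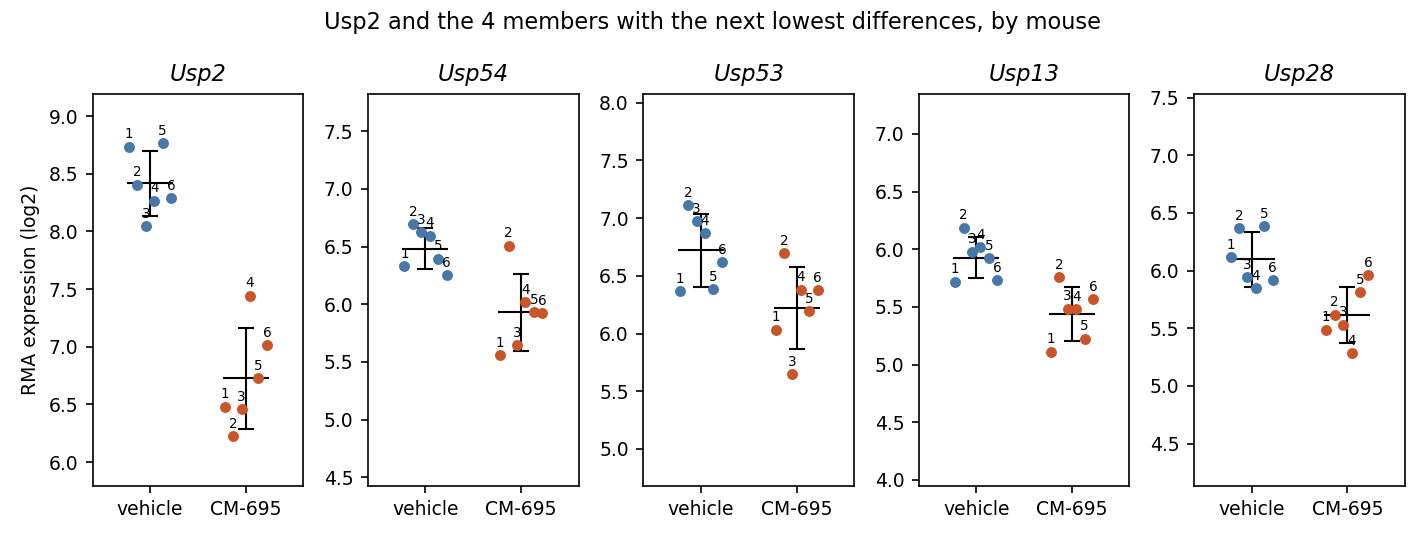
RMA expression (log2, y axis) of Usp2, Usp54, Usp53, Usp13 and Usp28 in each of 6 vehicle mice (blue) and 6 CM-695 mice (orange). Numbers are the mouse numbers in the group, the black bars are the mean ± SD, and all panels span the same log2 range. The 2 groups are apart for Usp2, with vehicle mice at 8.05 or more and CM-695 mice at 7.44 or less, and overlap for the other 4 genes.

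Usp2 stood apart from the rest of the family. Its difference was 3.07 times the next largest, that of Usp54 at -0.55, a gap of -1.14 log2 units. The other 55 members had a median difference of -0.03 (range -0.55 to 0.29, SD 0.18), with 34 below 0 and 21 above 0. Over all 22180 genes the median was 0.02 and the SD 0.21. The quartiles were -0.11 and 0.05 for the 55 members, against -0.09 and 0.12 for all genes. Among the 55 members, 83.6% differed by under 0.2 log2 units, as did 77.5% of all genes. Differences over 0.4 log2 units were found in 4 of the 55 (7.27%), namely Usp54, Usp53, Usp13 and Usp28, and in 4.33% of all genes.

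Across all probe sets, limma called 37 of 22180 genes at an adjusted p under 0.05, which is 0.167% of genes (0.144% lower and 0.0225% higher). Usp2, through which the family was chosen, was among them, so the count of 1 of 56 members is fixed by that choice, and it was 0 of 56 with the cardiac marker mean in the fit. Of the other 55 members 0 were called, with a smallest adjusted p of 0.189. At an unadjusted p under 0.05, 6 of the 55 were reached (10.9%), beside 9.1% of all genes, so the share over both directions was near the background. By direction, 5 of the 6 were lower and 1 higher, while of all genes 4.14% were lower and 4.96% higher. This split was not tested. Groups did not overlap in 1.08% of genes (0.636% lower and 0.442% higher) and in 0 of these 55 members. The data set limits on the probe set values of the other members. For 55 of 55 the 95% confidence interval left out a fall of 1 log2 unit, and for 48 of 55 it lay within 0.5 of 0. For the 12 members below the median of all probe sets this says little about RNA, since a signal near background cannot show a large fall.

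**Figure D2:**
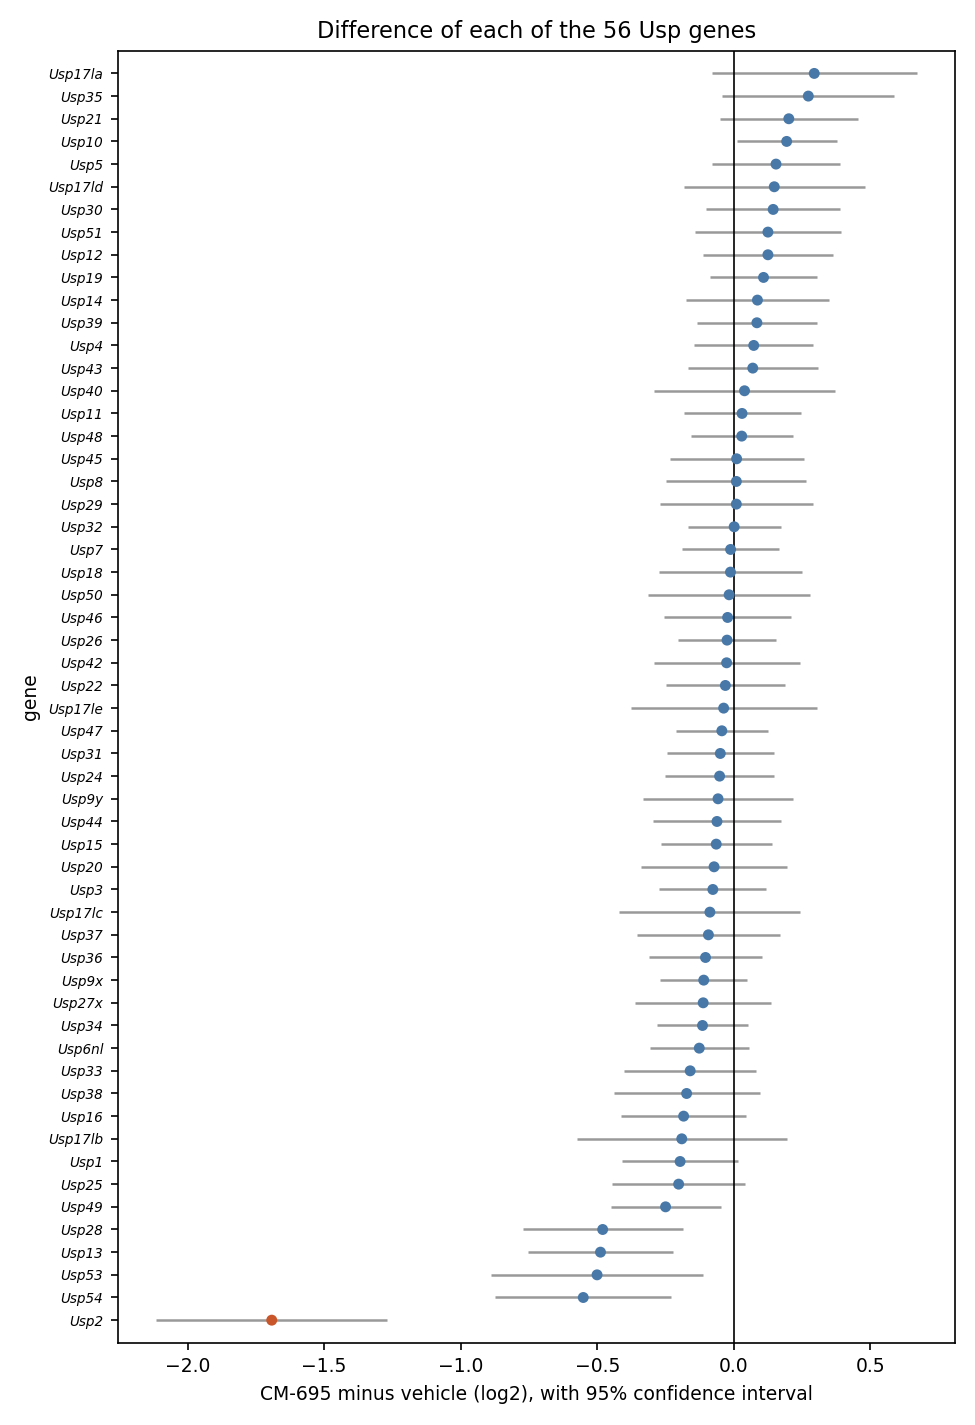
Difference between CM-695 and vehicle (log2, x axis) for each of the 56 Usp genes (y axis), ordered by value, with the 95% confidence interval of limma as a grey line. Usp2 (orange) lies at -1.69, and the other 55 genes (blue) lie between -0.55 and 0.29.

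Because Usp2 is counted among the clock outputs, its promoter window was searched for elements that clock factors bind. The RefSeq promoter table (GRCm38.p6) held windows of 300 bases, from 250 before to 50 after a start site, for 43 of the 56 members, in 44 windows. The Usp2 window, chr9:44084670-44084969 on the + strand, is shown because Usp2 is the member that differed. Of its bases 71.7% are G or C, against medians of 64% over member windows and 52.7% over all windows. The window is written in lower case with the 50 bases from the start site onward in capitals. That start site lies inside the annotated span of the gene, so an upstream start site of Usp2 is outside it.
Usp2: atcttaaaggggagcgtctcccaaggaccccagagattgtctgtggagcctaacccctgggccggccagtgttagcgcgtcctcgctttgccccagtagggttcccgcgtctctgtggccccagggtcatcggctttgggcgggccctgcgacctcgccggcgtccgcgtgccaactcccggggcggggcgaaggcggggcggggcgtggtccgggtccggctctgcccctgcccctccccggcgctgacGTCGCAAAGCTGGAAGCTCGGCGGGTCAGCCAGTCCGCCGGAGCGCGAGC

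The Usp2 window held none of the motifs searched on both strands, which says only that these letters are not in this window. The motifs were the E-box CACGTG bound by BMAL1 and CLOCK, the D-box TTANGTAA, the site TAGGTCA bound by ROR and REV-ERB factors and the heat shock unit GAANNTTC. The E-box was found in 5 of the 44 member windows (11.4%) and in 7.15% of all 32851 windows. The D-box, the ROR site and the heat shock unit were found in 0 member windows, and in 2.32%, 2.61% and 7.86% of all windows. The 5 E-boxes are shown in capitals with 12 bases on each side, from the member windows that held one. Whether an E-box bears on the difference of a member was not tested.
Usp6nl, chr2:6322600-6322629, + strand: gcgggaacagcgCACGTGccgccgggaagg
Usp31, chr7:121707447-121707476, - strand: atgccagcgagtCACGTGagctgcccactt
Usp4, chr9:108347812-108347841, + strand: gccgggcgcgcgCACGTGcgtggttacgtg
Usp32, chr11:85139941-85139970, - strand: gtgggagcgggtCACGTGactcggcatgga
Usp16, chr16:87454896-87454925, + strand: cactgcagtgaaCACGTGgcgggcctccca

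None of the 5 genes passed the threshold over all probe sets. Usp6nl differed by -0.13 (SE 0.08), Usp31 by -0.05 (SE 0.09), Usp4, a paralogue of Usp15 and Usp11, by 0.07 (SE 0.10), Usp32, a protease with a membrane anchor, by 0.00 (SE 0.08) and Usp16, a histone H2A deubiquitinase, by -0.18 (SE 0.11). Of 16 clock genes with a window, 5 held an E-box.

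Beside the clock genes, Usp2 differed by about as much as several repressor and output genes. On the list of clock genes 18 were measured, of which 2 passed the threshold as higher and 8 as lower. Of all genes 0.0225% passed as higher and 0.144% as lower. Per3, a period gene, differed by -1.86 (SE 0.14), Tef, an output transcription factor of the PAR bZIP class, by -1.59 (SE 0.12), and Ciart, a repressor of the CLOCK and BMAL1 pair, by -1.59 (SE 0.15). The confidence interval of Usp2 contained the values of all 3 genes, which is a description and no test of likeness. It also held Bhlhe41, a repressor, at -1.57 (SE 0.16), and the REV-ERB beta gene Nr1d2 at -1.42 (SE 0.17). Dbp, another PAR bZIP factor, fell by 2.68 (SE 0.16), Wee1, a cell cycle kinase, by 1.05 (SE 0.14) and Per1 by 0.99 (SE 0.13), all outside it. The activator genes Arntl and Npas2 rose by 2.69 (SE 0.15) and 2.24 (SE 0.24). Nr1d1, which encodes REV-ERB alpha, differed by -0.16 (SE 0.15, limma adjusted p = 0.787). Hlf, also a PAR bZIP factor, differed by -0.61 (SE 0.15), Cry2 by -0.46 (SE 0.16) and Nfil3 by 0.54 (SE 0.12). These differences come from the same 12 mice as that of Usp2. Since the hour of collection is not given, drug and hour cannot be told apart for any of them.

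**Figure D3:**
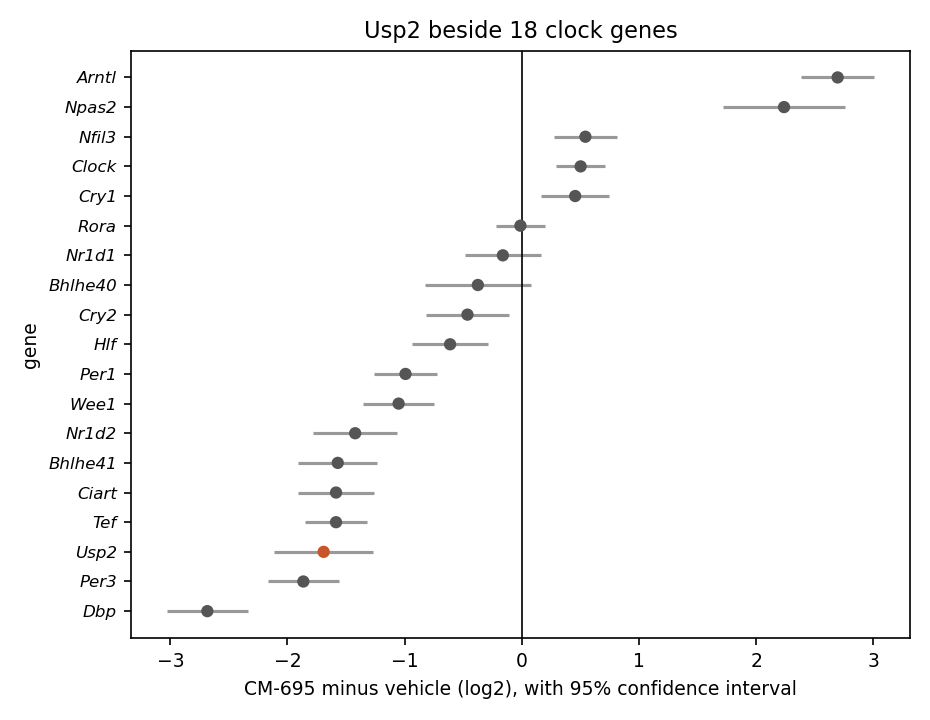
Difference between CM-695 and vehicle (log2, x axis) for Usp2 (orange) and the 18 measured clock genes (grey), with 95% confidence intervals of limma. Usp2 at -1.69 stands between Per3 at -1.86 and Tef at -1.59.

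After the mean of each group was removed, Pearson's r between Usp2 and the 18 clock genes over 12 mice ran from -0.36 for Nr1d1 to 0.33 for Ciart, with a median of -0.02. With the other 55 members it ran from -0.62 to 0.58 (median 0.05), and with all genes from -0.91 to 0.96 (median -0.01). The 5 genes most like Usp2 by this measure were Gm26504 (r = 0.96), a small nucleolar RNA gene with the synonym Snord116, Dlg2 (0.90), a postsynaptic scaffold gene, Snap25 (0.89), a gene of the presynaptic release machinery, Slc18a2 (0.88), the vesicular monoamine transporter gene, and Ndufb7 (0.87), a complex I subunit gene. CM-695 mouse 4 was the highest treated mouse for Usp2, and without it r was 0.93, 0.80, 0.80, 0.79 and 0.84 in the same order. These correlations are descriptions of 12 arrays, picked as the highest of 22179, and carry no p. Dlg2 had a mean of 3.82 over all mice, within the 2.34 to 4.60 of Y-linked genes, which female mice lack. Snap25 had a mean of 4.77, near the median of all probe sets, 4.72, so both may be little above background. In group difference these 5 genes did not resemble Usp2, at 0.46 (SE 0.50) for Gm26504 and 0.45 (SE 0.54) for Snap25.

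After Usp2 the lowest differences were those of Usp54, Usp53, Usp13 and Usp28, which did not pass the threshold over all probe sets. Usp54, long classed with Usp53 as lacking protease activity, measured 6.25 at the lowest, 6.49 at the median and 6.70 at the highest after vehicle. After CM-695 it measured 5.56, 5.93 and 6.51 at the same points, and 5 of 6 treated mice lay below the vehicle range. The exception was CM-695 mouse 2. Its difference was -0.55 (SE 0.15, adjusted p = 0.230). Without CM-695 mouse 2 it was -0.67 (adjusted p = 0.0491), just past the threshold, so the call depended on this mouse. That fit called 98 probe sets in place of 64, so more calls were not particular to Usp54. Leaving out any other single mouse did not bring Usp54 past the threshold.

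Usp53, whose protein is found at tight junctions, measured 6.36, 6.75 and 7.11 at the lowest, median and highest after vehicle, and 5.65, 6.28 and 6.69 after CM-695. The groups overlapped, with 3 of 6 treated mice below the vehicle range, and the difference was -0.50 (SE 0.18, adjusted p = 0.412). Usp13, a relative of Usp5 that acts on the autophagy protein Beclin 1, measured 5.72, 5.95 and 6.19 after vehicle and 5.11, 5.48 and 5.76 after CM-695. For Usp13 5 of 6 treated mice were below the vehicle range, by a difference of -0.49 (SE 0.12, adjusted p = 0.189). Usp28, which stabilizes the MYC protein and binds the DNA damage protein 53BP1, measured 5.85, 6.03 and 6.38 after vehicle and 5.29, 5.57 and 5.96 after CM-695. Here too 5 of 6 treated mice were below the vehicle range, and the difference was -0.48 (SE 0.14, adjusted p = 0.261).

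With the cardiac marker mean in the fit, the difference of Usp28 was -0.24 and that of Usp54 -0.59, Usp53 -0.69 and Usp13 -0.42. Usp28 deviated with the cardiac marker mean within groups (r = 0.61 over 12 mice, a description), and Usp53 and Usp54 with the fibroblast marker mean (r = 0.65 and 0.51). With the smooth muscle marker mean r was 0.90 for Usp53, 0.93 for Usp54, 0.79 for Usp13 and 0.02 for Usp28. With the adipocyte marker mean r was -0.67, -0.82, -0.70 and -0.16 in the same order. The part of these cells in the differences was not tested beyond the cardiac fit and the smooth muscle fit given below. No fit used the fibroblast marker mean. Among other members with an unadjusted p under 0.05, Usp49, a histone H2B deubiquitinase, differed by -0.25 (SE 0.09, adjusted p = 0.440), with vehicle mice at 4.89 to 5.15 and CM-695 mice at 4.50 to 4.97. Usp10, which acts on p53 and binds the stress granule protein G3BP1, was the single member in the higher direction, at 0.19 (SE 0.09, adjusted p = 0.520). Usp10 measured 6.71 to 6.96 in vehicle mice and 6.96 to 7.26 in CM-695 mice, 5 of 6 above the vehicle range.

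**Figure D4:**
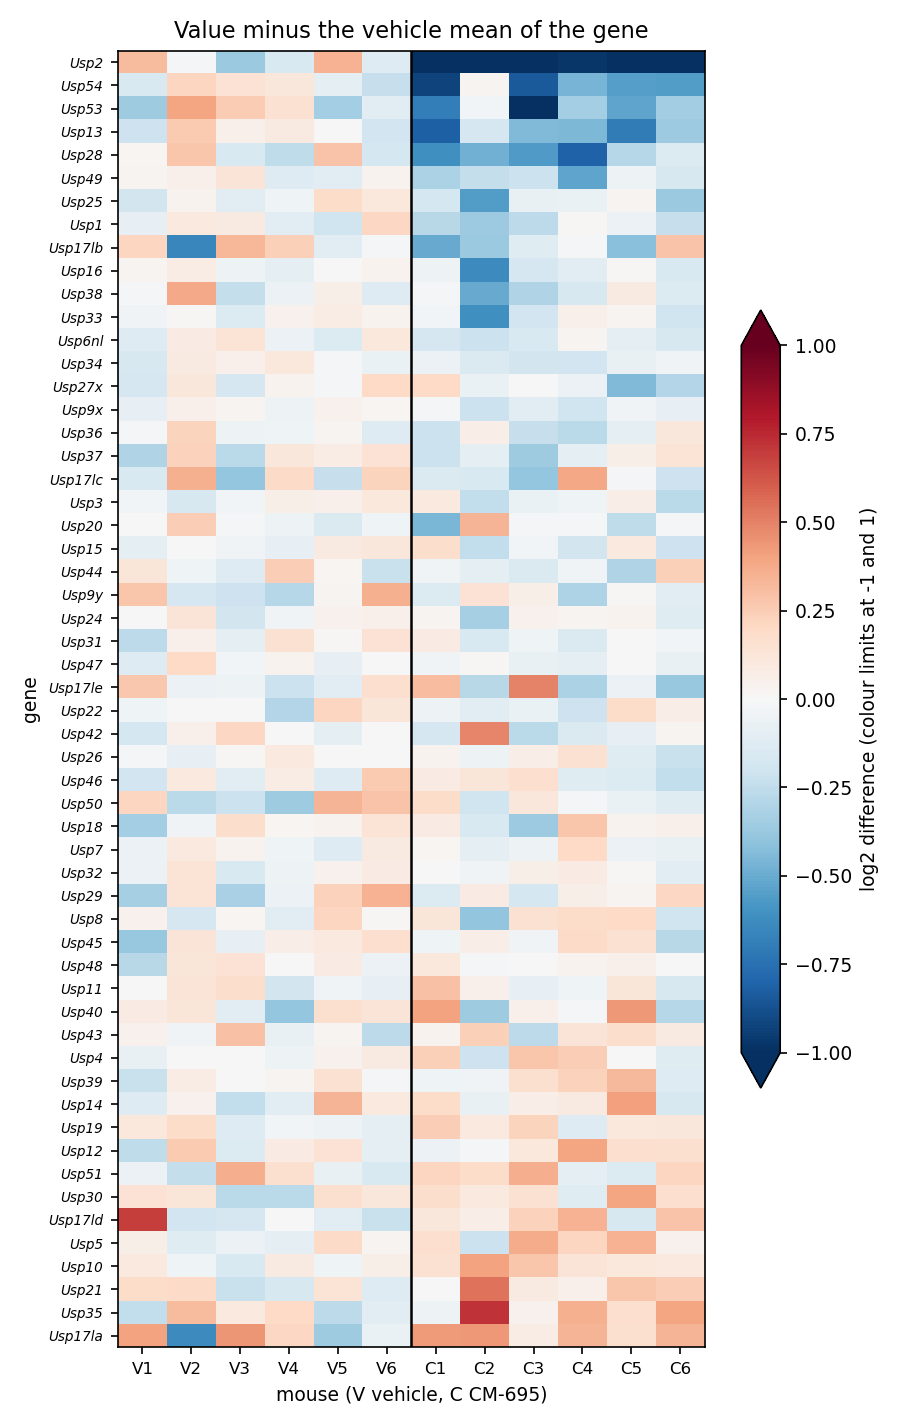
Value of each Usp gene (rows, ordered by group difference) in each mouse (columns V1 to V6 for vehicle and C1 to C6 for CM-695) minus the vehicle mean of that gene, on the log2 scale. Colour is capped at -1 and 1. Usp2 in the top row is dark blue in the CM-695 mice, while Usp54 and Usp53 are near 0 in CM-695 mouse 2.

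The members were then taken by role. Of 10 members with roles around p53, MYC and DNA damage, 5 were above and 5 below 0, with a median of -0.00. They ran from Usp28 at -0.48 to Usp10 at 0.19. Usp7, the deubiquitinase of MDM2 and p53, measured 7.57 ± 0.09 (SD, n = 6) after vehicle and 7.56 ± 0.11 (SD, n = 6) after CM-695, and differed by -0.01 (95% confidence interval -0.19 to 0.17). Usp1, which acts on FANCD2 and PCNA, differed by -0.20 (interval -0.41 to 0.02), and Usp5, which takes apart free ubiquitin chains, by 0.15 (interval -0.08 to 0.39).

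Among 11 members with roles at histones and in the nucleus, 8 were below 0 and the median was -0.06, from Usp49 at -0.25 to Usp21 at 0.20. Usp22, the deubiquitinase of the SAGA coactivator complex, differed by -0.03 (interval -0.25 to 0.19). Its paralogues Usp27x and Usp51 differed by -0.11 and 0.12. Usp3, an H2A deubiquitinase, differed by -0.08, Usp36, a nucleolar enzyme, by -0.10, and Usp48 by 0.03. Usp42 and Usp44 stood at -0.03 and -0.06.

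Among 12 members of endosomes, endoplasmic reticulum, mitochondria and the proteasome, 6 were above and 6 below 0 (median -0.04), from Usp13 at -0.49 to Usp35 at 0.27. Usp8, which sorts receptors at the endosome, differed by 0.01 (interval -0.25 to 0.27). Usp14, which sits on the proteasome, differed by 0.09 (interval -0.17 to 0.35), and Usp30, on the outer mitochondrial membrane, by 0.14 (interval -0.10 to 0.39). Usp9x differed by -0.11, Usp19, which is anchored in the endoplasmic reticulum, by 0.11, Usp25, the paralogue of Usp28, by -0.20, and the paired paralogues Usp20 and Usp33 by -0.07 and -0.16. Usp35 measured 4.31, 4.57 and 4.89 at the lowest, median and highest after vehicle and 4.52, 4.84 and 5.30 after CM-695. The groups of Usp35 overlapped, and its difference of 0.27 (SE 0.15) had an adjusted p of 0.607. Its mean over all mice, 4.71, lay just below the median of all probe sets, 4.72.

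Members listed under signalling had a median of -0.04, with 2 of 6 above 0. Usp12 and Usp46, paralogues that need the partner WDR48, differed by 0.12 and -0.02, Usp15 by -0.06, Usp34, a regulator of axin in Wnt signalling, by -0.11, Usp38 by -0.17 and Usp40 by 0.04. Usp18, which removes ISG15 and is induced by interferon, differed by -0.01 (interval -0.27 to 0.25), and was the single measured member for ISG15. The list of 3 members with little or no protease activity had a median of -0.50, set by Usp53 and Usp54, both at an unadjusted p under 0.05, while Usp39, a spliceosome protein, differed by 0.08. Usp31, Usp37 and Usp43, which had no role on the list, lay between -0.09 and 0.07. None of these genes passed the threshold.

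The 9 members of the germline, of lymphocytes or of the Y chromosome had a median of -0.02. Their values bear little weight, since 7 of the 9 lay below the median of all probe sets. The dimmest were Usp17lc, Usp17lb and Usp29, with means over all mice of 1.59, 2.63 and 2.68. Usp9y, a gene of the Y chromosome, measured 2.82 ± 0.27 (SD, n = 6) after vehicle and 2.76 ± 0.16 (SD, n = 6) after CM-695 in these female mice, which lack that chromosome. Usp17la had the highest difference of all members, 0.29 (SE 0.17, adjusted p = 0.645), with vehicle mice at 3.34 to 4.42 and CM-695 mice at 4.05 to 4.40. That difference was 0.17 without vehicle mouse 2, where Usp35 at 0.34 was higher, and -0.085 with the cardiac marker mean in the fit. Every treated mouse lay within the vehicle range of Usp17la. The 5 Usp17l genes are near-identical copies, and because a probe can bind RNA of several copies, which copy a value belongs to is uncertain.

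Probe sets of the same gene did not all agree. For 4 members, Usp12, Usp43, Usp46 and Usp50, more than 1 probe set named the gene alone. The further probe set of Usp12 differed by 0.07 and those of Usp46 by 0.06 and -0.14, and the further probe set of Usp43 by 0.10. For Usp50 the probe set used had a mean of 8.18 and the other of 3.89, with differences of -0.02 and -0.18. Usp50 neighbours Usp8 in the RefSeq gene table, and after removal of group means the brighter Usp50 probe set had r = 0.60 with Usp8 over 12 mice and r = 0.18 with the other Usp50 probe set. A dimmer probe set that named Usp54 together with another gene was not used. It differed by -0.12 (SE 0.09), against -0.55 (SE 0.15) for the Usp54 probe set used. Usp2 had 1 probe set.

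The members were also set against the level of smooth muscle markers, a measure that the choice of the family did not use. Each probe set was fitted with group and the mean of 8 smooth muscle markers per mouse, a fit added after the values had been seen. The slope is the log2 change of a gene per log2 unit of that mean. It passed the threshold for 9.07% of all genes and for 6 of the 56 members (10.7%), a share near the background. Usp53 (0.51, SE 0.09, adjusted p = 0.00554), Usp54 (0.42, SE 0.07, adjusted p = 0.00479), Usp35 (0.41, SE 0.07, adjusted p = 0.00430) and Usp42 (0.31, SE 0.07, adjusted p = 0.0257) rose with the markers. Usp8 (-0.28, SE 0.08, adjusted p = 0.0442) and Usp5 (-0.27, SE 0.07, adjusted p = 0.0306) fell with them. Of these, Usp35 was dim, with a mean of 4.71 over all mice, just below the median of all probe sets, 4.72. The slope of Usp2 was -0.15 (SE 0.18, adjusted p = 0.778).

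The smooth muscle mean ran from 9.38 to 10.23 in vehicle mice and from 8.82 to 10.79 in CM-695 mice, where mouse 2 was highest and mouse 3 lowest. Without these 2 mice, the farthest from the median, 0 of the 56 members and 0.83% of all genes passed, and the slopes were 0.56 for Usp53, 0.37 for Usp54, 0.50 for Usp35 and 0.18 for Usp42. Without CM-695 mouse 2 alone, 1 member passed, and without vehicle mouse 3 alone, 3. The smooth muscle marker means of the groups overlapped. With this mean in the fit the group difference was -0.44 for Usp54 (adjusted p = 0.0532), -0.37 for Usp53 (adjusted p = 0.208) and -0.42 for Usp13 (adjusted p = 0.110). That of Usp28 stayed at -0.48 (adjusted p = 0.248). That of Usp35 was 0.38 (adjusted p = 0.0842), against 0.27 without the marker mean. The same fit with adipocyte markers called Usp54 (slope -0.77), Usp42 (-0.66) and Usp8 (0.59), 3 of 56 members beside 7.47% of genes. These signs were opposite to those with smooth muscle markers, and CM-695 mouse 2 had the lowest adipocyte mean. Which of the 2 marker lists the slopes follow was not tested. Without its 2 farthest mice the adipocyte fit called 0 members beside 0% of genes. With cardiac markers the fit called 0 members beside 0.149% of genes (0.108% without its 2 farthest mice).

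**Figure D5:**
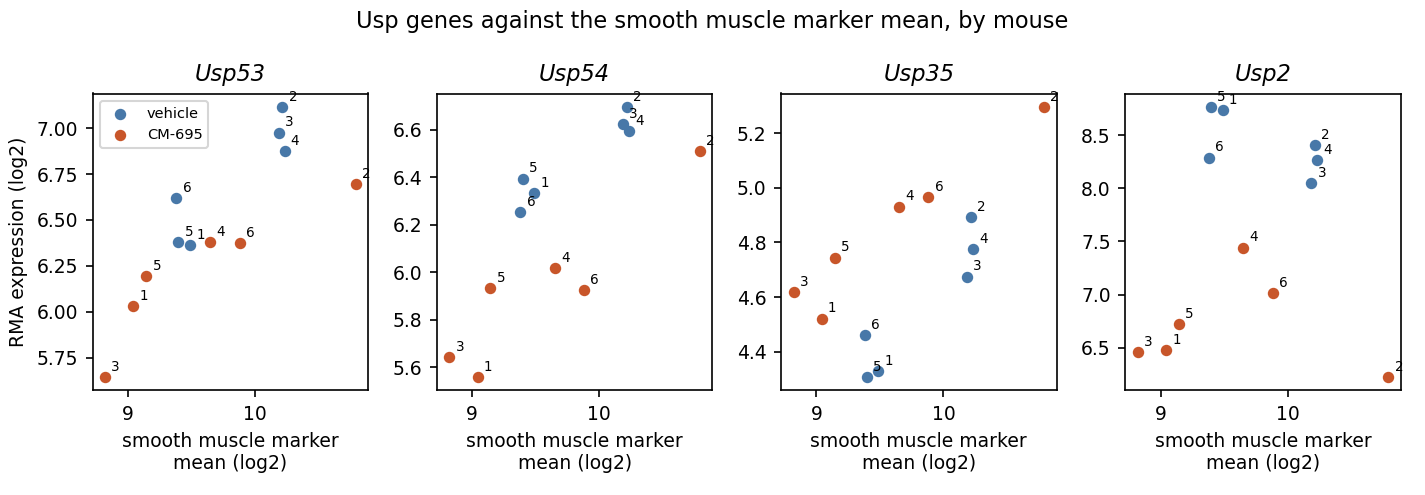
RMA expression (log2, y axes, each with its own range) of Usp53, Usp54, Usp35 and Usp2 against the mean of 8 smooth muscle markers (log2, x axis) in each vehicle (blue) and CM-695 (orange) mouse, numbered within the group. Usp53, Usp54 and Usp35 rise with the marker mean within each group, at slopes of 0.51, 0.42 and 0.41, and CM-695 mouse 2 lies farthest right at 10.79. All Usp2 values of CM-695 mice lie below those of vehicle mice, but 4 of the 6 CM-695 mice lie outside the vehicle range of the marker mean.

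Other gene lists were read against the same background of 0.167% of genes past the threshold and 9.1% at an unadjusted p under 0.05, so a count of 0 in a short list says little. Of 40 measured deubiquitinases and relatives without the Usp name, 0 passed the threshold in limma, 2 had an unadjusted p under 0.05, both lower, and the median difference was -0.01. The smallest p belonged to Mysm1, a histone H2A deubiquitinase of the metalloprotease class (-0.43, SE 0.10, adjusted p = 0.144), followed by Mindy3 (-0.26, SE 0.08) and Zup1 (-0.18, SE 0.09), which prefer particular chain linkages. Of 18 measured partners and regulators of Usp proteins, 0 passed and 1 had an unadjusted p under 0.05, Eny2, a subunit of the SAGA deubiquitinase module that works with Usp22 (-0.24, SE 0.09). Isg15, the ubiquitin-like modifier that Usp18 removes, differed by 0.36 (SE 0.17, adjusted p = 0.558), and Wdr48 by 0.05. Of 6 measured ubiquitin-like modifier genes, 0 passed and 0 had an unadjusted p under 0.05.

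Of 12 measured genes whose proteins have been reported as USP2 substrates, 2 passed, both clock genes. Arntl, which encodes BMAL1, rose by 2.69 (SE 0.15) and Per1 fell by 0.99 (SE 0.13). Cry1, a repressor of the clock, differed by 0.46 (SE 0.14, adjusted p = 0.294), Ccnd1, the cyclin D1 gene, by 0.04 (SE 0.13), Mdm2 by -0.14 (SE 0.09) and Fasn, the fatty acid synthase gene, by 0.40 (SE 0.26). These are transcript levels, and the proteins on which USP2 would act were not measured. Of the glucocorticoid-induced genes, a list that shares Per1 with the clock list, 7 of 14 passed as lower and 0 as higher, with a median of -0.86. Beside Per1 these were Ddit4, an inhibitor of mTOR signalling, at -1.44 (SE 0.19), the metallothioneins Mt1 and Mt2 at -0.85 (SE 0.09) and -1.24 (SE 0.20), Errfi1 at -1.23 (SE 0.20), Nfkbia at -0.91 (SE 0.11) and the kinase gene Sgk1 at -0.87 (SE 0.14).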

How the data were processed

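RNA of aortic tissue from 12 mice, 6 given CM-695 and 6 given vehicle, was hybridised to 1 array per mouse. The authors deposited log2 expression values for 41345 probe sets, made with RMA per the submitters' processing notes; the sources used here name no software version. Genes were named from the platform annotation (1 symbol for 23521 probe sets, several for 1814, none for 16010). Of 63 probe sets with a Usp symbol, 61 named 1 gene and gave 56 genes, all matched by gene ID to RefSeq.

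Group differences (CM-695 minus vehicle) were tested, two-sided, by the lmFit and eBayes functions of limma 3.58.1 under R 4.3.3, with Benjamini-Hochberg adjustment over all probe sets and a threshold of 0.05. The procedure was tested on simulated data. Replicate numbers were not used to pair mice, since the labels state no pairing. Deviations of same-numbered mice correlated between -0.10 and 0.10. The highest correlation of a vehicle mouse with any treated mouse was 0.09 to 0.20, so this cannot exclude a pairing. Members, lists and named genes were chosen with earlier results of these data known: every member is accounted for, those with the largest differences, an unadjusted p under 0.05 or the extreme value of a role list are named, and other list genes were named when past the threshold or among the smallest p, with some clock and role genes beside them as context. Smooth muscle fits were added later. Correlations within groups have group means removed.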

Additional observations from a re-analysis of the deposited data

Results flagged for a closer look

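In 112 sets of 6 values (56 genes in each group), 3 single mice stood apart from their group, the gap to the next mouse being 0.727, 0.752 and 0.638 of the range of the group in the order below. Chance sets apart about 1 in 20 such groups. Usp16 in CM-695 mouse 2 measured 6.41, below the 6.88 to 7.06 of the other treated mice. Usp17ld in vehicle mouse 1 measured 7.40, above the 6.49 to 6.71 of the others. Usp20 in vehicle mouse 2 measured 6.11, above 5.72 to 5.86.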

How the results depend on the processing

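The Usp2 difference kept its direction in 22 of 22 alternatives (-1.83 to -1.59) and its place as the largest in the family. It was no longer past the threshold with the replicate number as a block (difference -1.69), nor with the cardiac marker mean as covariate (-1.64). The count of Usp genes past the threshold was then 0 each, and 15 and 13 probe sets were called in place of 64. The labels do not say whether mice of the same number share more than that number. With the cardiac covariate the Usp2 difference was 2.37 times the next largest, that of Usp53, and Usp17la turned to -0.085; the cause was not tested. Leaving out 1 mouse at a time, the Usp2 difference ran from -1.83 to -1.59, its ratio to the next largest from 2.39 to 3.45, the family count from 1 to 2, that of the other members from 0 to 1 (Usp54 without CM-695 mouse 2), and their median from -0.06 to -0.01. The count of smooth muscle slopes ran from 1 to 6 of 56, and was 0 without the 2 farthest mice. Without dim probe sets 44 members were left and 116 probe sets passed; array weights gave 89 and the smooth muscle covariate 117. Dim members are limited by signal over background.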

Other observations

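Y-linked genes served as a floor in these female mice. The 6 measured ones, Usp9y among them, had means over 12 arrays from 2.34 to 4.60, and 0 lay above the median of all probe sets. Of 5 measured platelet markers, 5 had a difference above 0 (median 0.32), 0 passed the threshold in limma and 3 had an unadjusted p under 0.05; the mean of the list lay above the vehicle range in 3 of 6 CM-695 mice.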
